A study of Mus musculus with 23 samples.

Results

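8 named transcription factors that lay out body regions in the embryo (Tbx15, Shox2, Prrx1, Prrx2, Zic1, En1, Tbx18 and Meox2) were followed across 23 clonal mouse preadipocyte lines. They were taken by symbol from the table of deposited values, as 8 of 18193 genes with a probe set of a single symbol, and they are measured by 18 of 34945 such probe sets. Each gene is described by the brightest of its probe sets, judged by the mean of the 23 lines. The genes were proposed as limb and subcutaneous homeobox regulators after type differences had been seen in these values. By family, 5 of them are homeobox genes, 2 are T-box genes (Tbx15 and Tbx18) and 1 encodes a zinc finger protein (Zic1), so they are called patterning regulators here. The depot tests given below called none of them. They called 0 of all tested genes too, so they cannot decide on a link to subcutaneous fat.

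Every line grew from 1 cell of the stromal vascular fraction, the mixture of cells left when fat cells are removed from adipose tissue, and all came from 1 male Immortomouse aged 8 weeks, a strain bearing a heat-labile viral antigen that allows culture at 33 °C with interferon gamma (10 units/mL). The labels sort the lines into Type 1 (3 lines), Type 2 (5), Type 3 (8) and Other (7, with no numbered type), and the submitters had formed the types by clustering expression data. Clone names start with PGF in 11 lines and SCF in 12, read here as perigonadal and subcutaneous fat. Type 1 held 3 PGF lines, Type 2 held 1 PGF and 4 SCF lines, Type 3 held 4 of each and Other held 3 PGF and 4 SCF lines. All groups share the mouse, the antigen and the culture, each line is 1 clone on 1 array, and p-values measure the spread between clones of 1 animal.

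Patterning regulators are switched on in particular places of the embryo and often stay on in the connective tissue cells descended from them, so that fibroblasts and fat precursors keep a record of where they arose. Prrx1, Prrx2 and Shox2 act in limb bud mesenchyme, Tbx15 and Tbx18 in the dermal and body wall mesenchyme and in the skeleton, and Meox2 in the somites, the blocks of mesoderm that give rise to muscle and vertebrae. Zic1 acts in the dorsal neural tube and somites and En1 in the lower limb surface and part of the trunk dermis; in adipose biology Tbx15 and Shox2 are known for depot-linked expression, En1 for the lineage that yields brown fat and Zic1 as a classical brown fat marker.

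For 3 of the 4 genes that had 2 separate levels across the lines, the promoter, the stretch in front of the transcription start, is shown as 250 bases in RefSeq's GRCm38.p6, read 5′ to 3′ along the gene's strand. Capitals mark 4 short promoter motifs, searched on both strands, whose letters are given with their counts after the sequences; they do not overlap each other in these windows. The Zic1 window is chr9:91365769-91366018 (minus strand), the Meox2 window chr12:37108290-37108539 (plus strand) and the Shox2 window chr3:66981772-66982021 (minus strand).
Zic1: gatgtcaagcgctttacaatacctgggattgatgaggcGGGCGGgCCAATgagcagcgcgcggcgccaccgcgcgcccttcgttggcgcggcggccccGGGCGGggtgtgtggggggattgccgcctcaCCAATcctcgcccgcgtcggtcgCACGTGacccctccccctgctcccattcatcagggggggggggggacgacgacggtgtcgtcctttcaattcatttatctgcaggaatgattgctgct
Meox2: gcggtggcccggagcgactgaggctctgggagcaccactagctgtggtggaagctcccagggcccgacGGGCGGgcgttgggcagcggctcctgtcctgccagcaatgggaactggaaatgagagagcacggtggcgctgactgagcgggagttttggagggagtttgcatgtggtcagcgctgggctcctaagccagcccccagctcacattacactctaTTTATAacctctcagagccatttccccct
Shox2: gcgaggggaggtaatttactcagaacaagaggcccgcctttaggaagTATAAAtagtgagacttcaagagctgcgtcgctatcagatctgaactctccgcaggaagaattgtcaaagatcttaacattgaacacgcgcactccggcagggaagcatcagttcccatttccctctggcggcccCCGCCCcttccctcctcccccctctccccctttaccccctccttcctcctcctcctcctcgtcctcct
The Zic1 window holds 27 CpG dinucleotides, the Meox2 window 12 and the Shox2 window 11, beside a median of 6 over 32851 windows of this length. CCAAT occurs in the Zic1 window 2 times and in neither of the other windows, and it is present in 33.8% of all windows. TATAAA occurs once in the Meox2 window and once in the Shox2 window, and in 12.4% of all windows. GGGCGG occurs in each of the 3 windows and in 32.7% of all, while CACGTG, which reads the same on both strands, occurs in the Zic1 window and in 6.02% of all. A match describes the letters only. Of the 8 regulators, 7 had a window in the table.

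Values are log2 signal as deposited, from 2.03 to 14.46 over the table with a median of 5.13, and a step of 1 is a doubling. Probe sets differ in how brightly they report, so levels are compared between lines and never between genes. Pdgfra, a marker of preadipocytes, lay between 8.49 and 11.49 in Type 1 and between 9.28 and 12.70 in the lines outside it. Pdgfrb, from the same list, lay between 8.82 and 9.11 in Type 1 and between 10.51 and 12.27 elsewhere, with no overlap. Cd34, Dlk1, Thy1 and Col1a1 of that list lay within the range of the other lines. The mean of its 6 measured markers overlapped, at 8.77 to 9.45 in Type 1 and 7.52 to 10.59 elsewhere. The adipocyte regulator Cebpa did not overlap, at 4.78 to 5.55 in Type 1 and 6.11 to 9.59 elsewhere. Of the same adipocyte list, Fabp4 did not overlap, at 3.01 to 4.38 in Type 1 and 4.74 to 10.69 elsewhere. Pparg overlapped, at 4.17 to 5.73 in Type 1 and 5.64 to 9.20 elsewhere. Adipoq and Lpl lay within the range of the other lines. The Type 1 lines also carried markers of mesothelium, the lining of the abdominal cavity. Wt1 lay between 10.40 and 10.65 in Type 1 and between 3.01 and 5.24 in the 20 other lines, and the summed level of all 8 mesothelial markers lay between 13.87 and 14.48 in Type 1 and between 7.32 and 9.98 elsewhere. Krt19 of that list was not raised, at 4.97 to 6.37 in Type 1 and 4.96 to 9.76 elsewhere, and Krt8 in PGF3-4, at 5.17, lay within the 4.57 to 5.18 of the other lines. The part of this in the Type 1 results below was not tested. The Type 1 arrays had the lowest mean correlations to the other arrays, at 0.947 (PGF2-8), 0.962 (PGF3-11) and 0.966 (PGF3-4). Outside Type 1 these ran from 0.972 (SCF3-9) to 0.984 (SCF1-15). The actin probe sets of PGF2-8 differed by 1.58 between the 3′ and 5′ ends, against 0.53 to 1.00 on the other arrays.

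**Figure D1:**
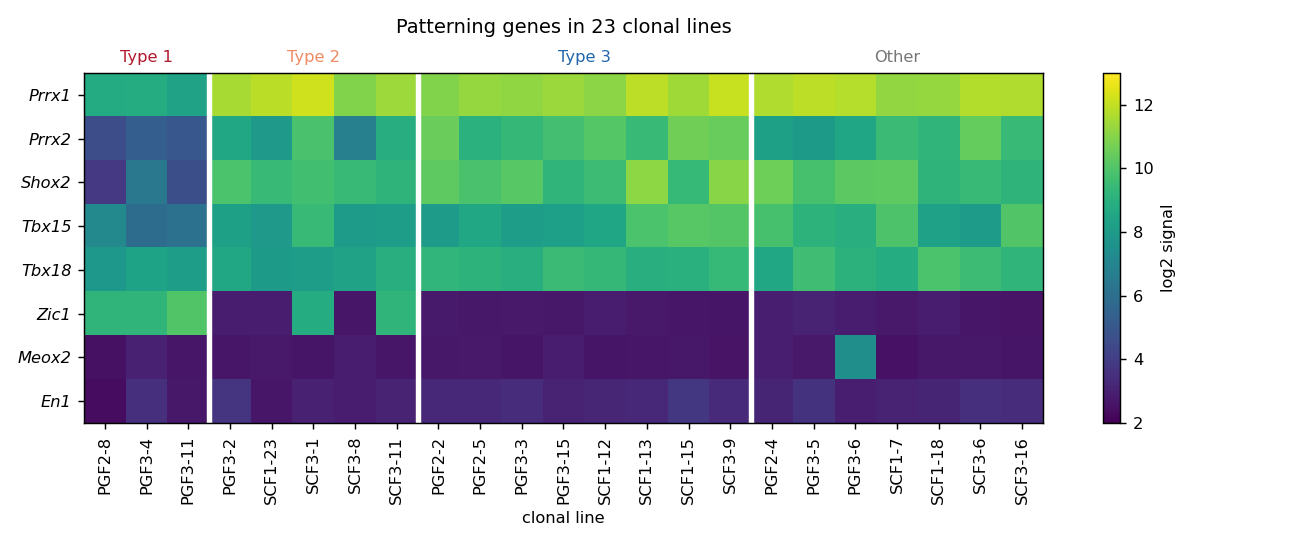
Log2 signal (colour scale, 2 to 13) of the 8 regulators (rows) in each of the 23 clonal lines (columns), grouped by type label and, within a group, PGF before SCF. Colours are to be compared along a row. Shox2, Prrx1, Prrx2 and Tbx15 are darkest in the 3 Type 1 lines, Zic1 is bright in 5 lines, and Meox2 is raised in PGF3-6 alone.

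The limb bud homeobox genes are described first for the comparison of Type 1 with the other types. Shox2, a regulator of the upper limb segment, read 3.83 in PGF2-8, 6.39 in PGF3-4 and 4.64 in PGF3-11, the Type 1 lines, against 9.16 to 9.87 in Type 2. In Type 3 the lowest, median and highest were 9.20, 10.00 and 11.12, and in Other 9.16, 9.81 and 10.57. All 3 Type 1 lines lay below each of the 20 others, and PGF3-4 lay closest to them. In RNA of a whole culture, fewer cells with a transcript and less of it per cell cannot be told apart. Shox2 averaged 4.95 ± 1.31 in Type 1, 9.51 ± 0.27 in Type 2 and 10.07 ± 0.72 in Type 3 (SD, n = 3, 5 and 8), and Type 1 was lower than the mean of Types 2 and 3 by 28.5-fold (log2 difference -4.83 ± 0.43, SE).

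Prrx1, which marks limb and body wall mesenchyme, read 8.75 in PGF2-8, 8.81 in PGF3-4 and 8.32 in PGF3-11. In Type 2 it lay between 10.91 and 12.20. Its lowest, median and highest values were 10.92, 11.30 and 12.10 in Type 3, and 11.20, 11.69 and 11.92 in Other. The Type 1 lines fell together below the rest, at a log2 difference of -2.86 ± 0.23 from Types 2 and 3, and stayed well above the table median. The lines outside Type 1 spread little, with an SD of 0.38 over 20 lines.

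Prrx2, the closest relative of Prrx1, read 4.61 in PGF2-8, 5.28 in PGF3-4 and 4.98 in PGF3-11. Type 2 spread widely, with 8.56 in PGF3-2, 7.89 in SCF1-23, 9.83 in SCF3-1, 6.78 in SCF3-8 and 8.87 in SCF3-11. Type 3 had a lowest, median and highest value of 9.01, 9.92 and 10.61, and Other of 7.98, 9.20 and 10.40. Type 1 did not overlap the other lines, and SCF3-8 was the line nearest to it. Type 1 was lower than Types 2 and 3 by 18.2-fold (log2 difference -4.19 ± 0.49), and Type 2 minus Type 3 was -1.51 ± 0.43.

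Of the T-box genes, Tbx15, known for its part in shoulder girdle and skin patterning, read 7.18 in PGF2-8, 5.90 in PGF3-4 and 6.09 in PGF3-11, against 7.96 to 9.45 in Type 2. It ran from 8.10 through a median of 8.56 to 10.13 in Type 3, and from 8.05 through 9.09 to 10.01 in Other. The Type 1 lines again lay below all others, but PGF2-8 came within 1 unit of the lowest of them, SCF1-23. The log2 difference of Type 1 from Types 2 and 3 was -2.27 ± 0.48.

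Tbx18, a regulator of somite borders and of the mesenchyme around the ureter and heart, read 7.88 in PGF2-8, 8.39 in PGF3-4 and 8.16 in PGF3-11. In Type 2 it lay between 8.01 and 8.94, so Type 1 and Type 2 overlapped. Type 3 ran from 8.92 through 9.18 to 9.49 and Other from 8.60 through 9.19 to 9.89. Every line was far above the table median. Type 1 differed from Types 2 and 3 by -0.64 ± 0.21 and Type 2 from Type 3 by -0.77 ± 0.19.

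Zic1 ran the other way. It read 9.18 in PGF2-8, 9.21 in PGF3-4 and 10.02 in PGF3-11, against 8.81 in SCF3-1 and 9.19 in SCF3-11 of Type 2 and 2.67 to 2.90 in the other Type 2 lines. In Type 3 the lowest, median and highest were 2.62, 2.73 and 2.90, and in Other 2.57, 2.88 and 3.09. All Type 1 lines were high, and so were a pair of SCF lines that the labels place in Type 2. The Type 2 mean of 5.28 ± 3.40 describes none of its lines, and the difference of Type 1 from Types 2 and 3 (5.46 ± 0.95) averages over that split.

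**Figure D2:**
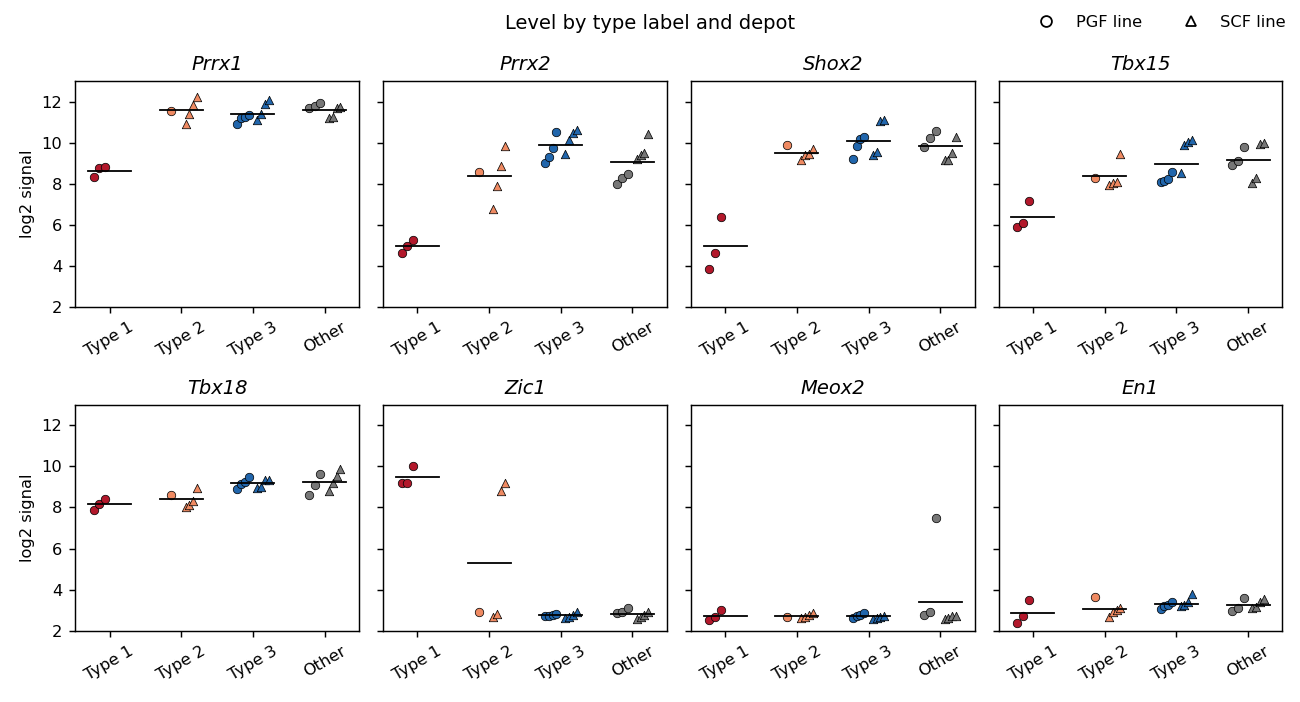
Log2 signal (vertical axis) of each regulator by type label (horizontal axis); circles are PGF lines, triangles SCF lines, and the bar is the group mean. Type 1 sits below all other lines for Prrx1, Prrx2, Shox2 and Tbx15, while Zic1 shows 2 levels within Type 2.

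Together, 6 of the 8 regulators passed the filter on low values, which asked that 3 lines or more exceed the table median. En1 passed it in 0 lines and Meox2 in 1. Zic1 passed it in 5, 3 of Type 1 and 2 of Type 2. It was thus tested only through Type 1, where it is high, and its call there is no support. All 6 tested regulators were called between Type 1 and the mean of Types 2 and 3 (limma, adjusted p below 0.05), 1 higher and 5 lower, where 32.8% of the 12307 tested genes were called (18.2% higher and 14.6% lower). Since the types were made from expression and the genes were chosen knowing these differences, nothing is read from that count. The median difference of the 6 was -2.57, beside 0.01 over all tested genes, and for the same reason nothing is read from it. For 4 of the 6 (Shox2, Prrx1, Prrx2 and Tbx15) all 3 Type 1 lines lay below the 20 others by the brightest probe set, as did 5.89% of tested genes. The other Tbx15 probe set did not show this.

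All Type 1 lines are PGF, so they were also set against the PGF lines of the other groups. The groups weighed equally in this reference, so PGF3-2, the 1 PGF line of Type 2, counted as much as the 4 of Type 3. Shox2 was lower by 32.6-fold (log2 difference -5.03 ± 0.47), Prrx2 by 14.5-fold (-3.86 ± 0.48), Prrx1 by 7.36-fold (-2.88 ± 0.24) and Tbx15 by 4.62-fold (-2.21 ± 0.47). Zic1 differed by 6.60 ± 1.05 and Tbx18 by -0.82 ± 0.25. The folds of the first 4 genes were within 1.5 times of those against Types 2 and 3, while that of Zic1 was 97.0-fold here and 44.0-fold there. Again 6 of 6 were called, beside 26.9% of all tested genes, and nothing is read from the count. Here too Zic1 was tested only through its high Type 1 lines. The Tbx18 call was lost without PGF2-8 or without PGF3-11: against Types 2 and 3 the differences were then -0.51 and -0.65, and against the PGF lines -0.69 and -0.83.

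The other groups differed less. Between Type 2 and Type 3, 0 of the 6 were called, beside 0.382% of tested genes, and 3 had an unadjusted p below 0.05 (Prrx2, Zic1 and Tbx18). Zic1 differed there by 2.54 ± 0.84, through the 2 high lines, while Tbx15 differed by -0.59 ± 0.43, Shox2 by -0.56 ± 0.38 and Prrx1 by 0.18 ± 0.20. Between Other and the mean of Types 2 and 3, 0 of 6 and 0% of all tested genes were called by limma, with 1135 genes at an unadjusted p below 0.05. The differences of the 6 ran from -1.18 ± 0.70 for Zic1 to 0.50 ± 0.35 for Tbx15. Without a call these values do not show that the groups are alike.

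A low and a high level were then sought line by line, without the type labels. A regulator was said to have 2 levels, called on and off, where the widest gap between neighbouring lines, sorted by level, was at least 2. This held for 4 of the 8, and of the 6 that passed the filter for 3, beside 1.38% of the tested genes; the pattern was known when the genes were chosen, so the share is a background only. Zic1 had the widest gap, 5.71, with 5 lines on and 18 off. The 18 off lines lay between 2.57 and 3.09, near the 5th percentile of the table at 2.80. The 5 on lines were 3 PGF lines of Type 1 and 2 SCF lines of Type 2, and no Type 3 or Other line was on.

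Meox2 was on in 1 line of 23. PGF3-6, a line of the group Other, read 7.47, while the 22 remaining lines lay between 2.50 and 3.02, a gap of 4.45. No other member set a single line apart in this way. The gaps of Shox2 (2.77) and Prrx1 (2.10) both separated the 3 Type 1 lines from the rest, though Prrx1, for which off means only the lower level, on both sides of its gap was above the table median and exceeded a fixed level of 7 in all 23 lines. Just below the limit of 2 was Prrx2, whose gap of 1.499 separated the same 3 lines, followed by Tbx15 at 1.09. Tbx18 had a widest gap of 0.28 and was high in all 23 lines.

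En1, the engrailed gene, had a widest gap of 0.28 too and was low throughout. It lay between 2.39 and 3.77 in the 23 lines, below the table median in each. It has 1 probe set, so a low reading has no second measurement beside it. Averages were 2.87 ± 0.58 in Type 1, 3.06 ± 0.37 in Type 2, 3.31 ± 0.21 in Type 3 and 3.27 ± 0.25 in Other (SD).

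A second probe set for the same gene checks the on states. For Zic1 the other probe set separated the same 5 lines with a gap of 2.67, for Meox2 the same 1 line with a gap of 3.90, and for Shox2 the same 20 lines with a gap of 2.39. Across the 23 lines the paired probe sets correlated at 0.988 for Zic1, 0.992 for Meox2 and 0.989 for Shox2, and outside Type 1 Shox2 still correlated at 0.944. Probe sets of a gene share the RNA and the array. Prrx1 has 6 probe sets, of which 5 put the widest gap between the 3 Type 1 lines and the rest, at 2.17 and 2.10 for 2 of them and at 1.97, 1.48 and 1.17 for the others, so that 2 of 6 reached the limit of 2. The remaining one stayed between 2.80 and 3.47 in all lines. For Tbx15 the other probe set gave a smaller difference of Type 1 from Types 2 and 3 (-0.80 ± 0.42) that was not called. In it Type 1, at 4.08 to 4.34, overlapped the other lines, with SCF1-23 at 4.11 and PGF3-2 at 4.21. For Tbx18 the other probe set gave -0.78 ± 0.22.

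**Figure D3:**
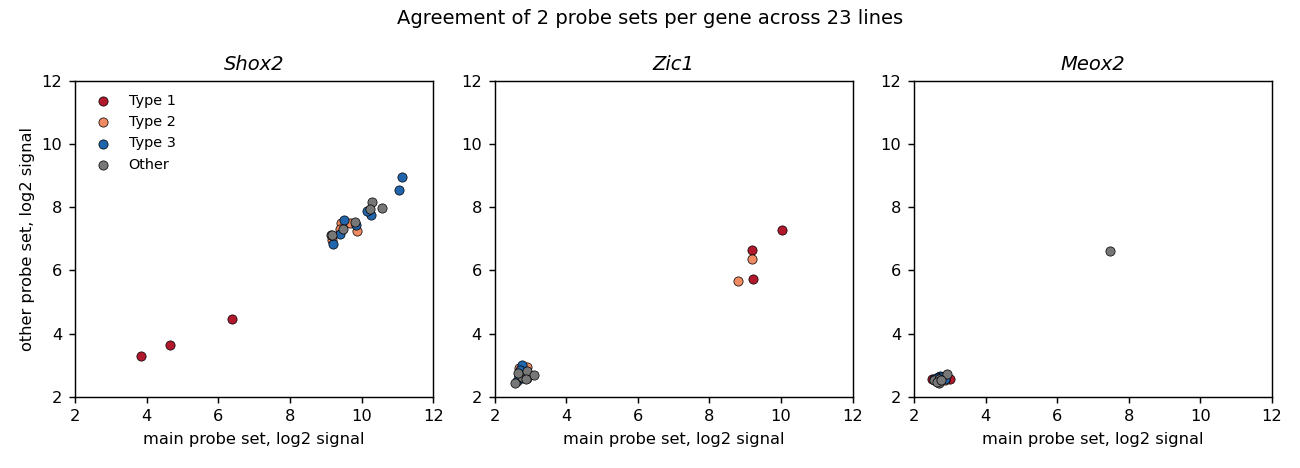
Log2 signal of the main probe set (horizontal axis) against the other probe set of the same gene (vertical axis) for Shox2, Zic1 and Meox2; each point is 1 of 23 lines, coloured by type label. Both probe sets split the same lines: 3 low Type 1 lines for Shox2, 5 high lines for Zic1 and 1 high line for Meox2.

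Depot was tested with the group label in the model. The depot differences given over all lines are from this fit, to which Type 1, all PGF, adds nothing. The first number in the clone name is 1 only in SCF lines and 2 only in PGF lines. It cannot be fully told apart from depot. The genes were proposed as limb and subcutaneous regulators with earlier results of these data known. The depot p-values may therefore not be independent of that choice. Tbx15 read 8.10, 8.59, 8.13 and 8.23 in the PGF lines of Type 3 (PGF2-2, PGF2-5, PGF3-3 and PGF3-15), against 8.53, 9.87, 10.13 and 10.05 in the SCF lines (SCF1-12, SCF1-13, SCF1-15 and SCF3-9). The depots overlapped by 1 line on each side, SCF1-12 and PGF2-5. In Other the PGF lines read 9.79, 9.09 and 8.93 and the SCF lines 9.92, 8.28, 8.05 and 10.01, with PGF inside the SCF range. Over all lines PGF minus SCF was -0.56 ± 0.34 for Tbx15 (limma, adjusted p = 0.656), within Type 3 it was -1.38 ± 0.47 (adjusted p = 0.999, unadjusted p = 0.00817), and the difference between Type 3 and Other in this effect was -1.59 ± 0.69 (adjusted p = 0.516, unadjusted p = 0.0326). For Prrx1 that difference between Type 3 and Other was -0.76 ± 0.36 (adjusted p = 0.552, unadjusted p = 0.0469).

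Prrx2 values of the depots did not overlap in Other but did in Type 3. Depot within Other was not tested on its own. The share of all genes without overlap there was not counted, so nothing is read from it. In Other Prrx2 read 8.26, 7.98 and 8.49 in the PGF lines (PGF2-4, PGF3-5 and PGF3-6), against 9.51, 9.20, 10.40 and 9.41 in the SCF lines, which did not overlap. In Type 3 the PGF lines ran from 9.01 to 10.50 and the SCF lines from 9.44 to 10.61, which did. Over all lines PGF minus SCF was -0.72 ± 0.33 for Prrx2 (limma, adjusted p = 0.573, unadjusted p = 0.0401), and within Type 3 it was -0.52 ± 0.48. The difference between Type 3 and Other in this effect was 0.86 ± 0.70 (limma, adjusted p = 0.776, unadjusted p = 0.235). The remaining 4 tested regulators differed between depots by -0.44 ± 0.71 (Zic1), 0.16 ± 0.32 (Shox2), -0.08 ± 0.17 (Prrx1) and -0.03 ± 0.16 (Tbx18), with adjusted p of 0.897, 0.921, 0.923 and 0.973. By limma 0 of the 6 and 0% of all tested genes were called for depot, with 1034 genes at an unadjusted p below 0.05, and within Type 3 also 0, with 448.

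**Figure D4:**
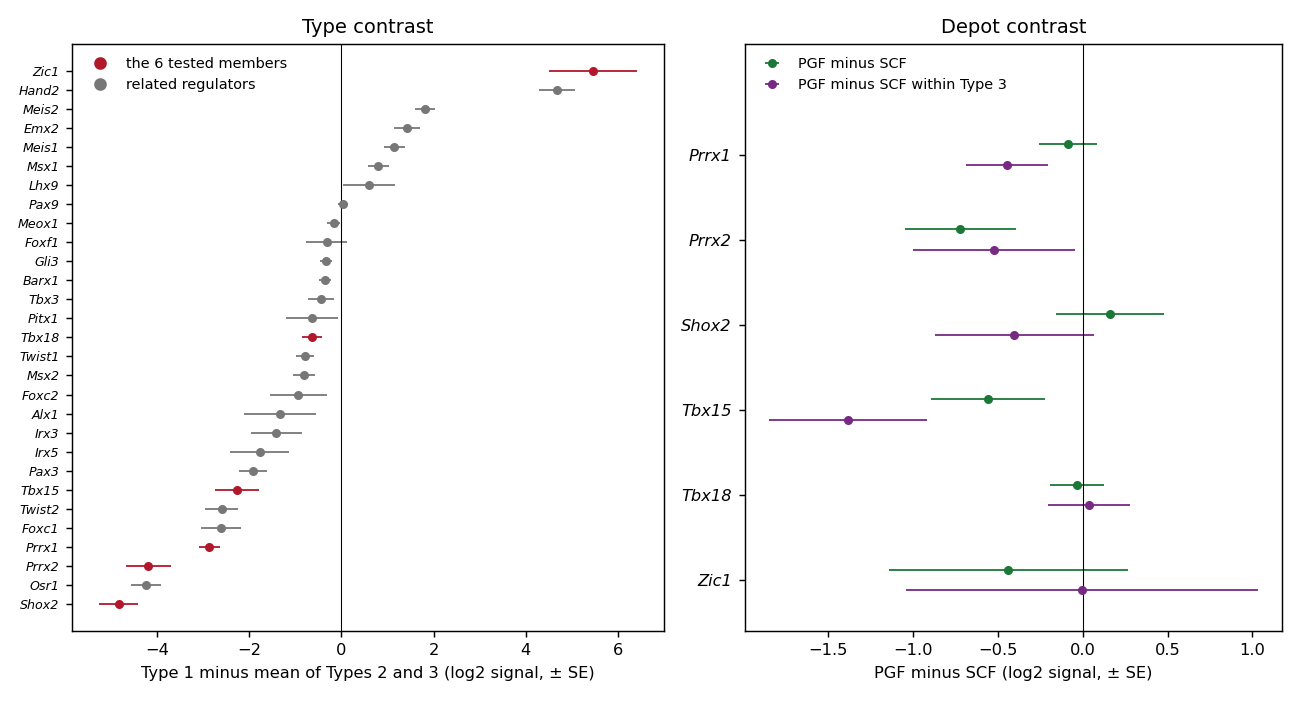
Left, difference of Type 1 from the mean of Types 2 and 3 (log2 signal, horizontal axis) for the 6 tested regulators (red) and 23 tested related regulators (grey); right, PGF minus SCF for the 6 over all lines (green) and within Type 3 (purple). Points are limma estimates and bars are ± SE. Type differences reach 5.46 for Zic1 and -4.83 for Shox2, while the widest depot difference over all lines, with group in the model, is -0.72 for Prrx2.

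Each line carries a score from 1 to 4 for fat cell differentiation and another for acidification of the medium, for which the sources used here do not say what a high score means. Per point of differentiation, Tbx15 differed by 0.38 ± 0.20 and Shox2 by 0.34 ± 0.18 with group in the model (limma, adjusted p = 0.733 and 0.736). Slopes of the other 4 lay between -0.07 and 0.21. Per point of acidification the widest slope was that of Zic1, 0.39 ± 0.27 (adjusted p = 0.565), followed by Tbx15 at 0.20 ± 0.13 (adjusted p = 0.557). Neither score gave a call among the 6 or among all tested genes (0% for each), with 872 genes at an unadjusted p below 0.05 for differentiation and 1516 for acidification. All 3 Type 1 lines had a differentiation score of 2, as did Meox2-bearing PGF3-6. That was the lowest score of any line. Lines of every group had it, such as SCF1-15 (Type 3), SCF1-23 (Type 2) and SCF1-18 (Other), so it does not set these lines apart. The Zic1-bearing Type 2 lines scored 4 (SCF3-1) and 2 (SCF3-11).

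Of the 28 pairs of regulators, 24 had a correlation nearer to 0 over the 20 lines outside Type 1 than over all 23. The other 4 all include Meox2. The genes were chosen knowing that Type 1 differs, the pairs share genes, and other gene pairs were not counted. Nothing is therefore read from that count. Prrx1 and Zic1 stood at -0.667 over 23 lines and at 0.240 outside Type 1. Over 23 lines Shox2 and Prrx1 correlated at 0.907 and Prrx1 and Prrx2 at 0.800, and over the 20 lines outside Type 1 these values were 0.290 and 0.047. Tbx15 and Shox2 kept 0.459 of 0.740, and Prrx2 and Tbx18 kept 0.428 of 0.653. These are descriptions over lines of 1 mouse. The genes most like each regulator over 23 lines were Gng11, Cdkn1a and Fgf7 for Shox2 (0.944, 0.936 and 0.935), Pcdh19, Nid1 and Mrc2 for Prrx1 (0.946, 0.942 and 0.940) and Clec14a, Cxxc5 and Cavin1 for Prrx2 (0.943, 0.927 and 0.926). Outside Type 1, Fgf7 and Shox2 stood at -0.156, but Clec14a and Prrx2 kept 0.794.

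Tbx15 was most like Pik3r1, Triobp and Mtmr11 (0.838, 0.823 and 0.823), and Triobp kept 0.790 outside Type 1. Tbx18 was most like Pmp22, Emb and Rspo3 (0.833, 0.817 and 0.814), which kept 0.805, 0.748 and 0.749. Zic1 was most like Zdhhc13, Prkab2 and Rpp14 (0.845, 0.827 and 0.827). For Meox2 the values of Sstr4, Krt20 and Med13 (0.909, 0.890 and 0.884) rest on PGF3-6, and for the low gene En1 they were Cd300ld, Galnt12 and Cachd1 (0.726, 0.714 and 0.707).

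Neighbouring genes on the chromosome were read beside the regulators, by GRCm38.p6 positions. Ptges, which makes prostaglandin E, begins 8220 bases beyond Prrx2 (chromosome 2, 30845064 to 30881251). Ptges lay between 4.26 and 5.04 in Type 1, against 7.40 to 9.64 in the 20 other lines, and correlated with Prrx2 at 0.861 over 23 lines and at 0.393 outside Type 1. Ptges and Prrx2 were thus low in the same 3 lines, and 5.89% of tested genes had all 3 below the 20 others. Asb6, on the other side of Prrx2, lay between 8.047 and 8.270 in Type 1 and between 8.274 and 8.738 elsewhere. Rsrc1, whose span overlaps that of Shox2, lay between 7.57 and 7.73 in Type 1 and between 7.81 and 8.57 elsewhere. It correlated with Shox2 at 0.756 over 23 lines and at 0.644 outside Type 1. Zic4, a related zinc finger gene whose span overlaps that of Zic1 (chromosome 9, 91358058 to 91365768), lay between 3.56 and 4.31 in all lines, the Zic1-on lines included. Next to Meox2 (chromosome 12, 37108540 to 37179534), Agmo read 6.28 in PGF3-6 but was highest in SCF1-18 at 7.55, where Meox2 was off.

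Related regulators of limb, somite and body wall were read in the same way. Of 56 listed, 50 had a probe set and 23 passed the filter. Between Type 1 and Types 2 and 3, 5 were called higher and 9 lower beside the 32.8% of all tested genes, with a median difference of -0.44 against 0.01 over all genes. These genes too were chosen with earlier results known, so nothing is read from the count or the median. Hand2, a regulator of the posterior limb and heart, read 9.71 in PGF2-8, 7.82 in PGF3-4 and 9.51 in PGF3-11, against 3.87 to 6.71 elsewhere, where the highest was SCF1-23. Osr1, a regulator of intermediate mesoderm and connective tissue, read 4.41, 5.45 and 5.47 in the same lines, against 8.59 to 10.50 elsewhere. Foxc1 and Twist2, both mesenchymal regulators, differed by -2.62 ± 0.43 and -2.60 ± 0.36. In the depot and score comparisons 0 of the 23 were called by limma, the smallest p among them being those of Pitx1 for depot (-0.80 ± 0.38, adjusted p = 0.589), Twist1 for differentiation (0.24 ± 0.07, adjusted p = 0.456) and Emx2 for acidification (-0.18 ± 0.07, adjusted p = 0.326).

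PGF3-6, the Meox2 line, also stood out in other genes, which were chosen after their values were seen. Eya2, a transcriptional co-activator, read 7.05 in PGF3-6 and at most 3.85 in the other lines. The summed level of its 5 measured adipocyte markers was the lowest of all lines at 9.96, a sum that mostly follows Lpl, the brightest of them. By their mean level PGF3-6 stood at 5.90, the lowest outside Type 1 but within the 5.50 to 6.15 of Type 1. Pparg at 5.64, Cebpa at 6.11, Fabp4 at 4.74 and Lpl at 9.72 were each the lowest outside Type 1, while Adipoq at 3.30 was not. Acta2, a contractile actin, was the highest of all lines at 13.72. The summed level of its 5 leukocyte markers was also the highest, at 12.24, through Csf1r at 11.68 and Cd53 at 10.51, while Ptprc, which defines leukocytes, stood at 3.03. The summed level of the 6 skeletal muscle markers was 6.92 in PGF3-6, within the 6.76 to 7.09 of all lines; Myod1 stood at 4.23 and Myf5 at 2.52 in it, and Des, above the table median in all lines, at 5.88. The actin difference of PGF3-6 was the smallest of the 23 arrays at 0.53. The part of these values in the Meox2 result was not tested.

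Zic1 was also read beside the brown fat and mesothelial markers. The summed level of the 6 brown and beige markers lay between 6.54 and 6.71 in the Type 1 lines, at 7.06 in SCF3-1 and at 8.35 in SCF3-11, where the lines outside Type 1 spanned 7.06 to 9.01. Of these markers, Ebf2 did not overlap, at 2.85 to 4.54 in Type 1 and 4.74 to 8.57 elsewhere. Tmem26 did not either, at 3.31 to 3.54 and 3.81 to 8.26. Prdm16, Cidea and Lhx8 in Type 1 lay within the range of the other lines. Ucp1, which defines brown fat, did too, between 3.21 and 3.37 in Type 1 and between 3.17 and 3.65 outside it. The Zic1-on lines of Type 2 differed from those of Type 1 in the mesothelial markers, whose summed level was 9.23 in SCF3-1 and 8.44 in SCF3-11. In them Wt1 stood at 3.10 and 3.23, but Krt19, at 8.83 and 7.61, was higher than in any Type 1 line. Both SCF lines also kept Shox2 (9.68 and 9.16), Prrx1 (12.20 and 11.38) and Tbx15 (9.45 and 8.11) at the level of the other lines, so Zic1 was high with the limb genes low in Type 1 and with the limb genes high in these 2 lines.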

How the data were processed

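Expression was measured on 23 arrays, 1 per line, from 250 ng of total RNA, per the labels' protocols. The authors' deposited values are on a log2 scale, read from their range since no header states it. MAS5 is named in the submitters' processing notes with no version, and the sources used here do not give the summarisation or scaling. The medians of single arrays ran from 5.09 to 5.16, and values were used as deposited. Of 45101 probe sets, 34958 had a single symbol in the platform annotation, and 34945 of them, without controls, were used, 34741 matched to RefSeq GRCm38.p6. Groups came from the labels and depot from the clone name.

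The 12307 genes that exceeded the table median of 5.13 on 3 arrays or more were fitted with limma 3.58.1 (lmFit and eBayes, R 4.3.3) over all 23 lines with 1 estimate of the spread. Benjamini-Hochberg adjustment ran over all of them with a threshold of 0.05. Python 3.11.15 was used for the rest. The fit was tested on simulated data. The regulators, the related genes and the markers were chosen with earlier results of these data known. The text names all 8 regulators and their probe sets, the 3 most similar genes of each, chromosomal neighbours, and of the related genes up to 4 by size among those that passed, or those with the smallest p. The number of arrays limits the precision. Alternatives covered the filter, centring, probe sets, array weights, an offset of 16, the clone-name number, depot, the gap and each line left out.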

Additional observations from a re-analysis of the deposited data

Results flagged for a closer look

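Each regulator was checked for a line far from the rest of its group, in the groups of 5, 8 and 7 lines, which gave 24 checks and 3 results; chance gives about 1 in 20. Meox2 in PGF3-6 stood at 7.47, with the next of the 7 Other lines at 2.93. Tbx15 in the Type 2 line SCF3-1 stood at 9.45, with the next Type 2 line at 8.26. En1 in the Type 3 line SCF1-15 stood at 3.77, with the next at 3.38, and all En1 values were below the table median.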

How the results depend on the processing

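In both Type 1 contrasts the calls of Shox2, Prrx1, Prrx2, Tbx15 and Zic1 kept their direction and passed under all alternatives run on the brightest probe sets or their mean; the second Tbx15 probe set was not called. The Tbx18 call against Types 2 and 3 was also lost with depot in the model (limma, adjusted p = 0.0608), at a difference of -0.62 against -0.64 as reported. The count called between Type 2 and Type 3 was 0 as reported, 3 with array weights (Prrx2, Zic1 and Tbx18), 1 with depot in the model (Prrx2) and 0 to 1 with a line left out (Tbx18, without SCF1-18, PGF2-4 or PGF3-6). All genes called there numbered 989 with array weights, 133 with depot, 9 with no filter, 5 with the clone-name number, 1 with the mean of probe sets, 0 (without SCF1-23) to 195 (without PGF3-6) with a line left out, and 47 as reported, so the background of that contrast is unsteady. Against Types 2 and 3, Type 1 gave 6228 calls with array weights, 2640 (without PGF2-8) to 4267 with a line left out and 4042 as reported; against the PGF lines these were 4635, 2167 (without PGF2-8) to 3558, and 3308. The on state held for 4 regulators, and for 2 (Zic1 and Meox2) with a gap of at least 3. For Prrx1 it held in 2 of 6 probe sets, and in the other 4 no line was called on. No paired analysis was possible because the replicate numbers only name the lines in deposition order. Without the Type 2 PGF line the depot-matched Type 1 contrast gave no value.

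Differences that changed sign were not called on either side. With group not in the model, so that the Type 1 lines weighed on the PGF side, PGF minus SCF was -1.12 for Shox2 and 0.87 for Zic1. In the same setting the differentiation slope was -0.81 for Zic1 and 0.0802 for Tbx18, and the acidification slope was -0.0536 for Tbx15, -0.0950 for Prrx1, -0.198 for Prrx2 and -0.0951 for Tbx18. Array weights gave 0.0808 for Prrx2 in Other and 0.013 for Tbx18 by depot. With every probe set tested on its own, 1 of Prrx1 gave -0.226 between Type 2 and Type 3, another -0.00728 for Other and another 0.0978 by depot, and 1 of Shox2 gave -0.124 by depot. The cause was not tested. With a line left out, PGF minus SCF ranged from -0.142 to 0.00432 for Prrx1, from -0.0953 to 0.0682 for Tbx18 and from -0.589 to 0.108 for Zic1, and within Type 3 from -0.0604 to 0.129 for Tbx18 and from -0.0451 to 0.04997 for Zic1. The Other contrast ranged from -0.331 to 0.0763 for Prrx2 and from -0.0974 to 0.137 for Shox2. The differentiation slope ranged from -0.114 to 0.00824 for Tbx18 and from -0.277 to 0.573 for Zic1, and the acidification slope of Tbx18 from -0.00694 to 0.0527.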
